A study of Mus musculus with 6 samples.

Results

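Glycolysis was examined through 10 genes of its enzymes: the hexokinases Hk1 and Hk2, glucose-6-phosphate isomerase Gpi1, the phosphofructokinases Pfkl (liver type) and Pfkp (platelet type), aldolase Aldoa, triosephosphate isomerase Tpi1, phosphoglycerate mutase Pgam1, enolase Eno1 and pyruvate kinase Pkm. They were picked by gene symbol, 10 of the 32285 genes in each count matrix, and all 10 were detected. Single cells of mouse embryos had been profiled with droplet-based 3' RNA sequencing at 6 embryonic days around implantation, at E3.5 and E4.5 and then at E4.75, E5.0 and E5.25, and last at E5.5. All embryos came from B6SJLF1/J females mated to B6CBAF1/J males, and the labels name no engineered allele and no treatment other than the hormones below. Blastocysts of E3.5 and E4.5 were flushed from the uterine horns of 4-week-old females superovulated with PMSG and hCG, while embryos of E4.75 to E5.5 were dissected from the uteri of 7-week-old females for which no hormone is named. A strainer of 20 µm was used on the flushed embryos and on those of E5.5, and none on the others. Each day was 1 library of pooled embryos, so no difference below has a replicate check, no p-value is given, and intervals in square brackets are exact 95% intervals that cover counting error only.

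Glycolysis splits glucose into pyruvate with a small yield of ATP, and its intermediates feed nucleotide, serine and lipid synthesis. Hexokinase traps glucose inside the cell as glucose-6-phosphate, phosphofructokinase catalyses the main committed and most regulated step, and pyruvate kinase closes the pathway. These control steps are served by paralogs of different regulation: HK1 is known as the constitutive hexokinase of most tissues and HK2 as the inducible one, while the liver and platelet forms of phosphofructokinase differ in their response to metabolites. The early mouse embryo lives on pyruvate and lactate, and its use of glucose is known to increase towards the blastocyst stage and around implantation.

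The results turn on 2 pairs of paralogs, and the sequences before their starts are given because the members of a pair differed in level between the same cells. Hk1 lies at chr10:62268855-62379908, Hk2 at chr6:82725025-82774454, Pfkl at chr10:77986947-78010083 and Pfkp at chr13:6579768-6648777, all on the minus strand of GRCm38. The 250 bases before each listed start, from RefSeq on GRCm38, are written below 5' to 3' along the gene, with both forms of the core of the hypoxia response element in capitals, ACGTG and GCGTG, which read CACGT and CACGC on the other strand. They cover chr10:62340422-62340671 for Hk1, chr6:82774455-82774704 for Hk2, chr10:78009808-78010057 for Pfkl and chr13:6648772-6649021 for Pfkp, all on the minus strand.
Hk1: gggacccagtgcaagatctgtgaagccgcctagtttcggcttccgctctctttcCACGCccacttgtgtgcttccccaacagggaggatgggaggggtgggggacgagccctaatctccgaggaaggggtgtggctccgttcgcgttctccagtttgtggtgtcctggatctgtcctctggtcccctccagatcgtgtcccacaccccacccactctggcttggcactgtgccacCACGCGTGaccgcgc
Hk2: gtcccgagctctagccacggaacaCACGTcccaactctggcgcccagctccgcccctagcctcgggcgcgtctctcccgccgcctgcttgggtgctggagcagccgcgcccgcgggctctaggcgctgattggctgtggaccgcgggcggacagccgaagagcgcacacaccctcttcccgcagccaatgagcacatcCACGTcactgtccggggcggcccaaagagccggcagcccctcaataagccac
Pfkl: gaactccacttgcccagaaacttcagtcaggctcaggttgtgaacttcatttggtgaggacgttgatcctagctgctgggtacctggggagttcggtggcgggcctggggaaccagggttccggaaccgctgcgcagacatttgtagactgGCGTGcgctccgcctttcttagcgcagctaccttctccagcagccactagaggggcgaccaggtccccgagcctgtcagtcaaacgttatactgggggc
Pfkp: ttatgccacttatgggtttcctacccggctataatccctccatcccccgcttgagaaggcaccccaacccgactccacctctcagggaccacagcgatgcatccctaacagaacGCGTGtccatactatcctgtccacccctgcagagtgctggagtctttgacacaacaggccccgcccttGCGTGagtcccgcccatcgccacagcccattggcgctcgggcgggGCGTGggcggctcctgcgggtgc
The Hk2 stretch holds ACGTG 2 times, 226 and 52 bases before the start, and the other 3 hold GCGTG. Pfkp has GCGTG 3 times, Pfkl has it 1 time, and Hk1 has it 3 times, with 2 of these overlapping. A further start of Hk1 is listed whose 250 bases, chr10:62379909-62380158, hold neither form. Counting the start listed first for each gene, ACGTG was held on either strand by 2 of the 10 glycolytic genes (20.0%) and 16.6% of 27025 genes, and GCGTG by 4 of the 10 (40.0%) and 28.2% of these genes. A match of letters is a description of the sequence and not a binding site.

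Of 42328 barcodes with 391375562 UMIs in all, 20817 were kept as cells. A UMI is a molecular tag, so that each one counts 1 captured RNA molecule. Median depth was 18096, 10485, 31090, 17310, 19750 and 5104 UMIs per cell from E3.5 to E5.5. At E5.5 68.1% of barcodes lay under the limit of 1500 detected genes, against 6.37% to 32.9% at the other days. Between libraries 132 barcodes were shared, 47 of them on kept cells. Cells were grouped by clustering into epiblast-like (44 to 2358 cells per library), endoderm-like (421 to 2239 from E4.5 on), trophoblast-like (42 to 1169) and, from E5.0, trophoblast giant cell-like cells (318 to 879). The names rest on marker genes, with all 10 epiblast, 11 endoderm and at least 10 of 14 trophoblast markers detected in their own class at every day. Detection in a sum of cells does not separate classes, since endoderm-like cells also held all 10 epiblast and 14 trophoblast markers. The sums differed, with epiblast markers at 1581 to 3079 CPM in their own class and at most 680 CPM in the other lineages. Endoderm markers were 7879 to 10736 CPM against at most 799.7 CPM, and trophoblast markers 3270 to 3920 CPM against at most 954 CPM. The clusters were named from these same lists. In the giant cell-like class 7 of 10 giant cell markers were detected, with Prl3b1, Ctsq and Ctsj at 0, as in endoderm-like and epiblast-like cells of E5.0. Their sum was 1218 to 1673 CPM in the giant cell-like class and at most 238 CPM in the 3 lineages from E5.0 on. Cluster 12 of the endoderm held 971 to 1208 CPM of them. The giant cell-like cluster, cluster 2, matched the trophoblast list best. The classes of different days lay in different clusters: the E4.5 epiblast, endoderm and trophoblast in clusters 20, 16 and 19, those of E5.5 mostly in clusters 5, 3, 8 and 7, in 0 and 1, and in 4 and 9, and those of E4.75 in 15 and 13, in 11 and 14, and in 18. Clusters 3, 5, 7 and 8 of the epiblast and cluster 19, which also held the 42 trophoblast-like cells of E3.5, had no marker of any class among their 10 leading genes. In the endoderm-like class, clusters 12 and 14 matched parietal endoderm markers best and the others those of primitive or visceral endoderm. Clusters with markers of unrelated lineages, which held 3, 79, 166, 113 and 2185 cells from E4.5 to E5.5, were kept out of these classes. Levels are UMIs of a gene per 1000000 UMIs of a class in a library (CPM), a measure that does not separate less RNA per cell from fewer expressing cells, and cells of 1 library share free RNA. Levels of different genes are compared only as shares between paralogs, since capture of 3' ends differs between genes.

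The hexokinases went apart in the trophoblast. Hk1 was low in epiblast-like and endoderm-like cells of every day. In the trophoblast-like class used here it climbed with each day, while Hk2 was lower at each later day. Hk1 in trophoblast-like cells was 2.41, 16.3, 35.8, 61.5, 67.5 and 79.2 CPM from E3.5 to E5.5, the first of these from 2 UMIs. In the epiblast it was 8.83, 10.7, 11.02, 8.62, 8.26 and 10.3 CPM over the same days, and in the endoderm 7.65, 5.88, 6.23, 8.71 and 12.9 CPM from E4.5 on. The trophoblast thus held the highest Hk1 level of every library from E4.5 on, and the epiblast values stayed within a narrow band. Hk1 at E5.5 was 4.86-fold [3.66, 6.56] that at E4.5 in trophoblast-like cells. With each library clustered alone it was 54.8 CPM at E5.5 and 38.3 CPM at E4.5, a log2 ratio of 0.52 that did not reach 2-fold. Clustered that way it did not climb with each day, at 35.2, 57.4 and 60.4 CPM at E4.75, E5.0 and E5.25. Within the E5.5 library it was 7.69-fold [6.50, 9.13] higher in trophoblast-like than in epiblast-like cells and 6.13-fold [4.94, 7.68] lower in endoderm-like than in trophoblast-like cells.

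Hk2, the form induced by growth factors and low oxygen, was lower after implantation in all 3 lineages. It was 660.5, 438, 342, 138, 136 and 129.8 CPM in trophoblast-like cells over the 6 days. In the epiblast it was 251, 326, 182, 121, 143 and 145 CPM over the same days, and in the endoderm 349, 273, 156, 136 and 135 CPM from E4.5 on. In the classes used here the lineages lay close together at E5.5. The lowest level was in the trophoblast, which had held the highest of each library up to E4.75. Against E4.5, Hk2 at E5.5 was 2.25-fold [2.09, 2.41] lower in the epiblast, 2.58-fold [2.39, 2.79] lower in the endoderm and 3.37-fold [3.12, 3.64] lower in the trophoblast. Most of the step in the trophoblast lay between E5.0 and E4.75, libraries that were both dissected and unfiltered, where Hk2 was 2.48-fold [2.37, 2.60] lower at E5.0. It was the one member called at 2-fold in that comparison, where 10.5% of all genes were.

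As a share of Hk1 plus Hk2 UMIs, which does not depend on library size, Hk2 was 99.6%, 96.4%, 90.5%, 69.1%, 66.9% and 62.1% [59.9, 64.2] in trophoblast-like cells over the 6 days. In the epiblast it was 96.6%, 96.8%, 94.3%, 93.3%, 94.5% and 93.4% [92.3, 94.3]. In the endoderm it was 97.9%, 97.9%, 96.2%, 94.0% and 91.3% [89.4, 92.9] from E4.5 on. From E4.75 on the trophoblast share was lower than both others by more than the counting intervals. A further paralog mattered in the endoderm. Hkdc1, a hexokinase-like enzyme known from gut and liver, was 28.5, 27.5, 36.5, 50.0 and 58.3 CPM in endoderm-like cells from E4.5 on and at most 4.82 CPM in the other 2 lineages. Hk2 as a share of Hk1, Hk2 and Hkdc1 UMIs was therefore 90.6%, 89.1%, 78.5%, 69.9% and 65.5% [63.0, 67.9] in the endoderm. At E5.5 it was 62.0% [59.8, 64.1] in the trophoblast, where Hk1 made up nearly all of the rest.

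**Figure D1:**
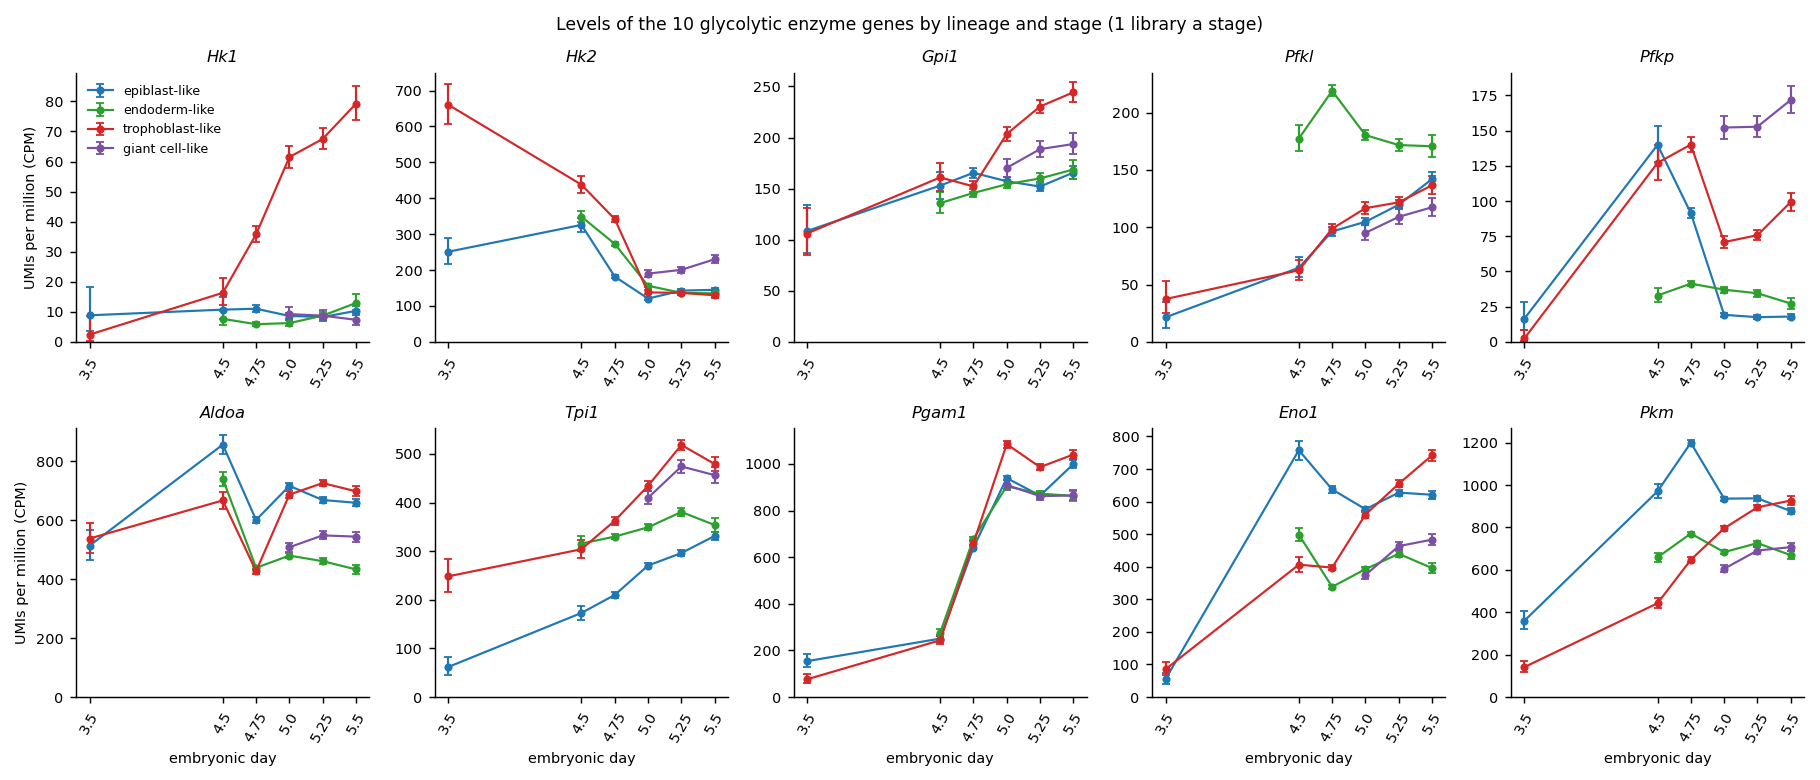
Level of each of the 10 glycolytic genes (vertical axes, CPM on a linear scale from 0) by embryonic day (horizontal axis) in epiblast-like, endoderm-like, trophoblast-like and giant cell-like cells, with exact 95% Poisson intervals of the summed UMIs as bars. Hk1 reaches 79.2 CPM in trophoblast-like cells at E5.5 and 12.9 CPM in endoderm-like cells, Hk2 is lower at the later days in all 3 lineages, and Pfkp in the epiblast drops to 19.2 CPM at E5.0.

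Giant cells, the large invasive trophoblast cells at the maternal interface, did not share the Hk1 level of the other trophoblast. Hk1 in giant cell-like cells was 9.22, 8.71 and 7.33 CPM at E5.0, E5.25 and E5.5, near the epiblast level, and Hk2 was 190.0, 201 and 230.0 CPM, above the 3 lineages of those libraries. At E5.5 Hk1 was 10.8-fold [8.16, 14.6] lower in giant cell-like than in trophoblast-like cells. Their Hk2 share was 95.4%, 95.8% and 96.9% at the 3 days. The E5.5 contrast depended on the clustering. With the E5.5 library clustered alone, Hk1 was 22.3 CPM in 771 giant cell-like cells and 54.8 CPM in 1846 trophoblast-like cells. Those giant cell-like cells held 660.4 CPM of summed giant cell markers and 1209 CPM of summed primitive and visceral endoderm markers, against 1270.4 and 59.3 CPM in the giant cell-like class used here. With the E5.0 and E5.25 libraries clustered alone, Hk1 was 9.01 and 2.48 CPM in giant cell-like cells, against 57.4 and 60.4 CPM in trophoblast-like cells. The E5.0 trophoblast-like cells clustered alone held 719 CPM of summed primitive and visceral endoderm markers, against 51.8 CPM in the class used here. A further 345 cells, set apart for markers of unrelated lineages, held 49.9 CPM of these markers and 56.6 CPM of Hk1. Of the clusters matching parietal endoderm markers, the one with the higher score (the parietal-marker cluster below, cluster 12, led by Arhgap6, Lama1 and Col4a1, with 321, 216 and 258 cells at E5.0, E5.25 and E5.5) also differed from its neighbours. Its Hk1 was 13.7, 17.2 and 31.6 CPM, against 5.21, 7.55 and 9.69 CPM in the other endoderm-like cells, the last 3.26-fold [2.07, 5.04] higher on 34 UMIs. Hkdc1 was 69.7, 88.5 and 74.2 CPM there, and Hk2 made up 59.2%, 51.6% and 57.8% of the UMIs of Hk1, Hk2 and Hkdc1. The other, cluster 14, counts among the other endoderm-like cells in these comparisons, with 171, 52 and 115 cells at the same days and 6.99, 8.40 and 12.2 CPM of Hk1, the last on 8 UMIs. It made up 370 of the 1099 endoderm-like cells of E4.75, where its Hk1 was 8.46 CPM, against 4.35 CPM in cluster 11, the main cluster of that day.

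The phosphofructokinases showed a different exchange, in the epiblast. Pfkp, the platelet form, was high in the E4.5 epiblast and low from E5.0 on, while Pfkl, the liver form, was higher at each later day. Pfkp in the epiblast was 16.4, 140.0, 91.4, 19.2, 17.5 and 18.0 CPM from E3.5 to E5.5. Pfkl there was 21.4, 64.6, 96.3, 105, 119.6 and 142 CPM. At E5.5, compared with E4.5, Pfkp was 7.79-fold [6.73, 9.03] lower and Pfkl 2.20-fold [1.91, 2.53] higher. The step in Pfkp lay between neighbouring dissected libraries, 4.76-fold [4.39, 5.18] lower at E5.0 than at E4.75, and Pfkp was the one member beyond 2-fold there, where 5.75% of all genes were. It did not occur in the endoderm, where 0 of 9 members measured and 2.82% of all genes were called between these days, and where Pfkp was 32.9, 41.4, 37.1, 34.5 and 27.2 CPM and Pfkl 177, 219, 180.4, 172 and 171 CPM from E4.5 on. At E4.5 Pfkl was 2.74-fold [2.37, 3.19] higher, and Pfkp 4.25-fold [3.57, 5.09] lower, in the endoderm than in the epiblast. Pfkp overlaps Pitrm1 of the other strand at its 3' end, and no source used here states whether counting used strand.

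In the trophoblast both forms were present from E4.5 on. Pfkp was 2.41 (2 UMIs), 127, 140.2, 70.9, 75.8 and 99.3 CPM and Pfkl 37.4, 62.4, 98.7, 117, 122 and 137 CPM from E3.5 to E5.5. Giant cell-like cells held 152, 153 and 172 CPM of Pfkp, and 95.1, 109 and 117 CPM of Pfkl, at E5.0, E5.25 and E5.5. The Pfkp level of giant cell-like cells was higher than that of the 3 lineages in each of these libraries, 2.15-fold [1.99, 2.32] that of trophoblast-like cells at E5.0, 2.02-fold [1.88, 2.16] at E5.25 and 1.73-fold at E5.5. With the E5.5 library clustered alone it was 115 CPM in giant cell-like and 112 CPM in trophoblast-like cells. At E5.5 Pfkp was 5.53-fold [4.85, 6.32] higher in trophoblast-like than in epiblast-like cells.

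The Pfkp share of Pfkl plus Pfkp UMIs placed the lineages apart. In the epiblast it was 43.3% [25.5, 62.6], 68.4% [64.8, 71.8], 48.7%, 15.5%, 12.8% and 11.2% [10.1, 12.5] from E3.5 to E5.5. In the endoderm it was 15.7%, 15.9%, 17.0%, 16.7% and 13.8% from E4.5 on, so the epiblast share was below that of the endoderm from E5.0. In trophoblast-like cells it was 6.06% (2 of 33 UMIs), 67.1% [63.1, 70.8], 58.7%, 37.8%, 38.4% and 42.1% [40.0, 44.2]. With each library clustered alone the direction between E5.5 and E4.5 turned, with 45.2% [43.6, 46.9] at E5.5 and 40.3% [31.8, 49.3] at E4.5. Giant cell-like cells held 61.6%, 58.4% and 59.4% at the last 3 days. Clustered alone, they held 62.3%, 66.1% and 46.2%, against 37.04%, 38.0% and 45.2% in trophoblast-like cells, and at E5.5 the counting intervals of both classes overlapped. That E5.5 giant cell-like class is the one with the high endoderm markers given above, and the 967 cells set apart there held 50.7%. At E5.0 the trophoblast-like class clustered alone also held endoderm markers, and the 345 cells set apart there held 37.6%. The parietal-marker cluster had 5.88%, 6.52% and 5.60%, below every class of those libraries, and cluster 14 had 8.83%, 14.3% and 14.9%. The muscle form Pfkm added 7.35% to 11.3% of the UMIs of the 3 genes in the epiblast and 1.78% to 7.58% in endoderm-like and trophoblast-like cells from E4.5.

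**Figure D2:**
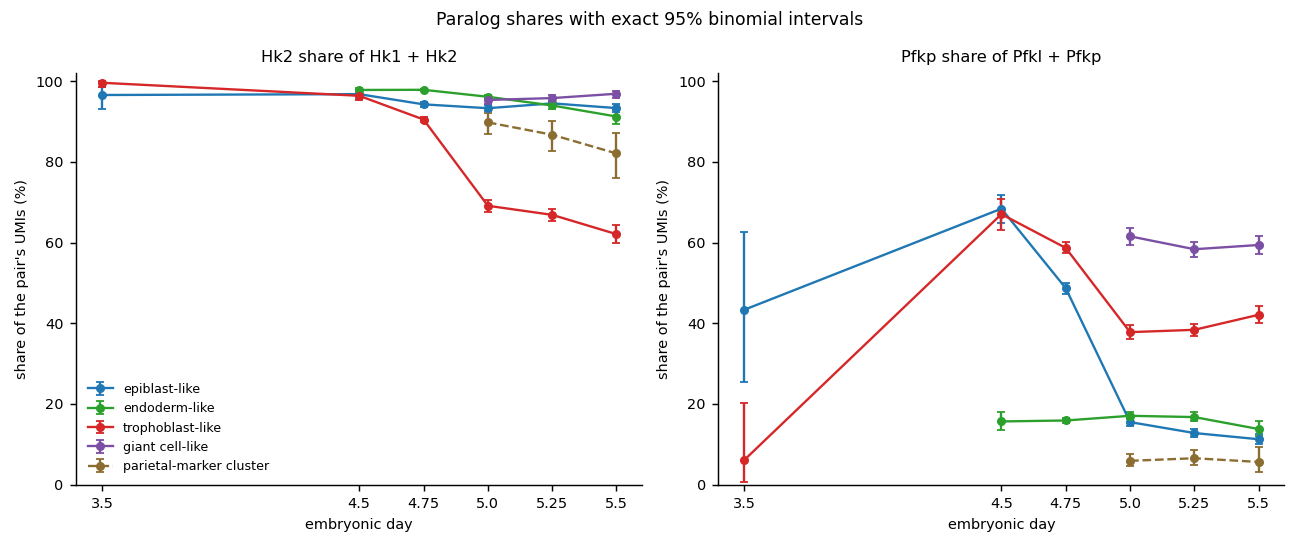
Share of Hk2 in Hk1 plus Hk2 UMIs (left) and of Pfkp in Pfkl plus Pfkp UMIs (right; vertical axes, percent) by embryonic day (horizontal axes) in each class and in the parietal-marker cluster (broken line), with exact 95% binomial (Clopper-Pearson) intervals as bars. The trophoblast share of Hk2 declines to 62.1% at E5.5, below the 82.1% of the parietal-marker cluster and the 91.3% or more of the other classes, and the epiblast share of Pfkp drops to 15.5% at E5.0.

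The trophoblast values depend on how its cells are divided, in a description made after the data were seen. The summed level of the 10 giant cell markers in trophoblast-like cells was 6.03, 210.2, 205, 78.9, 61.7 and 52.4 CPM from E3.5 to E5.5, with 2, 6, 6, 6, 6 and 6 of the 10 detected and Prl2c2, Prl3b1 and Ctsj at 0 throughout. It was lower at E5.0 than at E4.75, as was the Pfkp share, while Hk1 was higher. The list is not specific to the giant cell-like class, which held 1218, 1673 and 1270 CPM of it at E5.0, E5.25 and E5.5. The parietal-marker cluster held 1208, 1131 and 971 CPM at these days. At a coarser clustering (resolution 0.6) the E4.75 trophoblast fell into 205 giant cell-like and 262 trophoblast-like cells. Hk1 was 7.51 CPM in those giant cell-like cells, against 56.4 CPM in the trophoblast-like cells, and the Hk2 share was 98.3% in the giant cell-like and 82.7% in the trophoblast-like cells. Pfkp was 223 CPM in the giant cell-like cells, against 79.6 CPM in the trophoblast-like cells, and the Pfkp share was 69.6% in the giant cell-like and 44.7% in the trophoblast-like cells. The split therefore had the same direction as the one between both classes at the later days. With the E4.5 library clustered alone, 132 trophoblast cells formed an unnamed cluster, 73 kept the trophoblast name and 35 fell into a cluster with markers of unrelated lineages. The unnamed cells had 6.53 CPM of Hk1, against 38.3 CPM in the named ones, and 200.3 CPM of Pfkp, against 48.6 CPM in the named ones. The 35 mixed-marker cells held 0 UMIs of Hk1 and 6.22 CPM of Pfkp, a Pfkp share of 18.2% [2.28, 51.8], and were thus low in both genes. They had 3374 CPM of summed trophoblast markers and 330 CPM of primitive and visceral endoderm markers. The unnamed cells held 309 CPM of these endoderm markers and the named ones 63.5 CPM. Summed giant cell markers were 354 CPM in the unnamed, 41.1 CPM in the named and 6.22 CPM in the mixed-marker cells.

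With giant cell-like cells added to the trophoblast at every day, Hk1 was 2.41, 16.6, 34.9, 44.2, 47.5 and 48.3 CPM from E3.5 to E5.5. The Hk2 share of this sum was 99.6%, 96.3%, 90.7%, 77.8%, 76.9% and 78.1%, so a lower share than in the epiblast remained. Its Pfkp share was 6.06%, 67.4%, 59.3%, 47.2%, 46.5% and 50.4%. How far the share of giant-marker cells accounts for the difference between days was not tested.

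**Figure D3:**
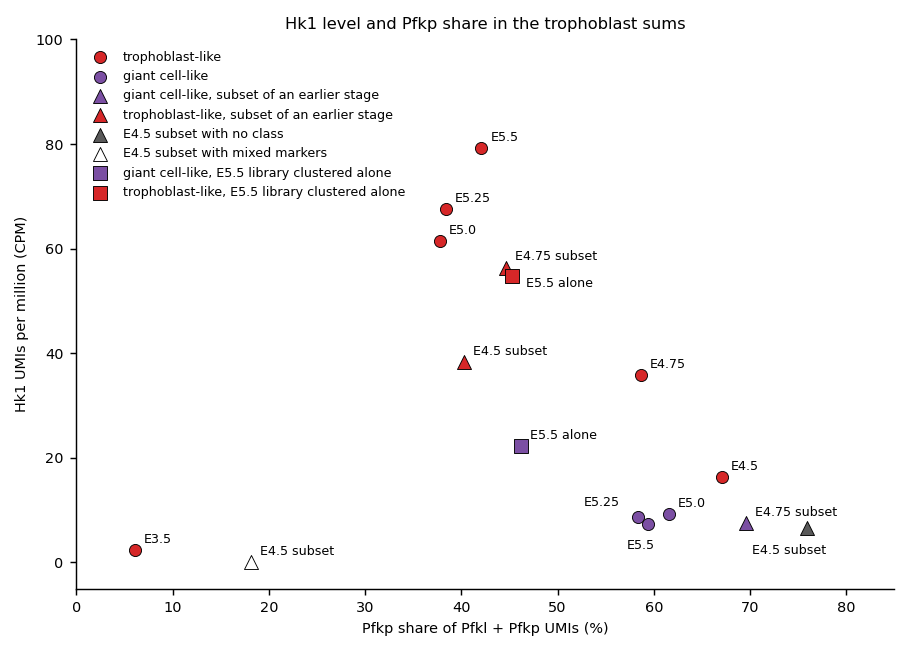
Hk1 level (vertical axis, CPM) against the Pfkp share of Pfkl plus Pfkp UMIs (horizontal axis, percent) in trophoblast-like and giant cell-like sums by day (circles) in subsets of the E4.5 and E4.75 trophoblast (triangles) and in the classes of the E5.5 library clustered alone (squares). The giant cell-like sums, the E4.75 giant cell-like subset and the unnamed E4.5 subset lie at 6.53 to 9.22 CPM of Hk1 with Pfkp shares of 58.4% to 75.9%, and the trophoblast-like subsets lie at 38.3 and 56.4 CPM with 40.3% and 44.7%. The mixed-marker E4.5 subset lies low in both, and the E5.5 giant cell-like cells clustered alone lie at 22.3 CPM and 46.2%, between the other groups.

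Of the enzymes below, Pgam1 showed the largest difference common to all 3 lineages. It interconverts 3- and 2-phosphoglycerate. Pgam1 was 154, 251, 641, 939, 864 and 999.6 CPM in the epiblast from E3.5 to E5.5. In the endoderm it was 276, 679, 904, 873 and 863 CPM from E4.5 on, and in the trophoblast 75.9, 243, 661, 1085, 986 and 1040.5 CPM from E3.5. All lineages were low in the flushed libraries and high in the dissected ones. Pgam1 at E4.75 was 2.56-fold [2.39, 2.74] that at E4.5 in the epiblast, 2.46-fold [2.34, 2.60] in the endoderm and 2.71-fold [2.52, 2.92] in the trophoblast. The genes called at 2-fold between these days were 16.5% of all in the epiblast, 15.8% in the endoderm and 15.2% in the trophoblast, and Hk1 in the trophoblast was the only other member among them. Between these days the collection went from flushing of superovulated females to dissection, so stage and collection cannot be told apart for this step. The muscle paralog Pgam2 was 58.0 CPM in the E3.5 epiblast and 18.1 CPM in the E3.5 trophoblast, where Pgam1 held 72.6% [65.2, 79.2] and 80.8% [70.3, 88.8] of the UMIs of both, and Pgam1 held at least 98.4% in the 3 lineages at the later days.

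The isomerases Gpi1 and Tpi1 moved little after E4.5 in the endoderm and more in the trophoblast. Gpi1, which turns glucose-6-phosphate into fructose-6-phosphate, was 108, 153, 165, 157, 152 and 166 CPM in the epiblast, 136, 146, 154, 160.0 and 169 CPM in the endoderm and 106, 161, 152, 204, 230.4 and 244 CPM in the trophoblast. Tpi1, which interconverts the triose phosphates, was 61.8, 173, 210.0, 270.5, 296 and 331 CPM in the epiblast, 316, 330.0, 349, 381 and 354 CPM in the endoderm and 248, 304, 363, 434, 518 and 479 CPM in the trophoblast. The trophoblast held the highest level of both genes from E5.0 on. Tpi1 in the epiblast was lowest at E3.5 and higher at each later day, 1.92-fold at E5.5 over E4.5, below the 2-fold limit used here. Tpi1 overlaps Spsb2 of the other strand at its 3' end.

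Aldoa, the aldolase that splits fructose-1,6-bisphosphate, varied least of the 10, with its highest of 17 class levels 2.01 times its lowest. It was 513, 856, 600.4, 716, 668 and 659 CPM in the epiblast, 740.1, 438, 479.7, 461 and 433 CPM in the endoderm and 538, 667, 427, 686, 726 and 698 CPM in the trophoblast. At E5.5 it was lowest in the endoderm among the 3 lineages. A second gene identifier with the symbol Aldoa, at chr7:126800790-126809108, had at most 0.663 CPM and was kept apart from the first, at chr7:126795234-126800751.

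Eno1 and Pkm, enzymes of the last steps, were low at E3.5 in both lineages present. Eno1 was 55.5, 758, 637, 577, 628 and 621 CPM in the epiblast, 498, 338, 393, 439.8 and 396 CPM in the endoderm and 85.6, 406, 397, 560.4, 655 and 742 CPM in the trophoblast. At E4.5 it was 13.7-fold [10.1, 18.8] its E3.5 level in the epiblast and 4.749-fold [3.74, 6.12] in the trophoblast. The Eno1 level is uncertain because 75.2% of the 50-base windows in its last 500 bases also occur in Eno1b and 4 pseudogenes, and Eno1b took 0.997% to 2.74% of the UMIs of both in the 3 lineages. Pkm was 359, 970.2, 1199, 936, 937 and 877 CPM in the epiblast, 659, 771, 684, 726 and 669 CPM in the endoderm and 141, 442, 647, 796, 895 and 927 CPM in the trophoblast. Pkm in the trophoblast was 2.09-fold [1.98, 2.22] higher at E5.5 than at E4.5, and was 2.19-fold [2.06, 2.34] lower than in the epiblast at E4.5. The M1 and M2 splice forms of Pkm are not separated by counts per gene. Pkm took at least 99.7% of the UMIs of Pkm and Pklr, the liver and red cell pyruvate kinase gene, in every class.

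Summed over the 10 genes, glycolytic UMIs were 1550.2, 3702, 3834, 3849, 3833 and 3969 CPM in the epiblast from E3.5 to E5.5 and 3191, 3242, 3343, 3391 and 3229.5 CPM in the endoderm from E4.5 on, but 1897, 2868, 3264, 4152, 4412 and 4576 CPM in the trophoblast. The sum weights each gene by its capture and is led by Pgam1, Pkm, Aldoa and Eno1. From E4.5 on the epiblast and endoderm sums kept to a narrow band, and the trophoblast passed both at E5.0. Giant cell-like cells lay between, with 3424, 3699 and 3776 CPM, and the parietal-marker cluster was lowest, with 2551, 2412 and 2256 CPM.

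The main comparison of stages set E5.5 against E4.5, the first filtered like the second but dissected rather than flushed, with a member called at 2-fold or more among genes at 10 CPM or more at either day. All 10 members passed that limit in each lineage. In the epiblast 2 were higher (Pfkl, Pgam1) and 2 lower (Hk2, Pfkp), or 4 of 10 where 31.1% of all genes were called, 13.0% higher and 18.1% lower. In the endoderm 1 was higher (Pgam1) and 1 lower (Hk2), or 2 of 10 against 28.0% of all genes, 16.7% higher and 11.3% lower. In the trophoblast 4 were higher (Hk1, Pfkl, Pgam1, Pkm) and 1 lower (Hk2), or 5 of 10 against 29.9%, 12.6% higher and 17.3% lower. These shares are near those of all genes in the epiblast and the endoderm. The median log2 ratio of CPM + 10 over the 10 was −0.09 in the epiblast, −0.01 in the endoderm and 0.75 in the trophoblast, against 0.01, 0.18 and 0.03 over all genes measured. Over all genes with counts the median log2 ratio was −0.18 in the epiblast, 0.0088 in the endoderm and −0.15 in the trophoblast. With median-of-ratios scaling, which sets that median near 0, Hk2 in the epiblast, at −0.99, no longer reached 2-fold. With each library clustered alone, Hk1, Pfkl and Pkm in the trophoblast no longer did, at 0.52, 0.92 and 0.55. Pfkp there was newly called as higher, at 112 CPM at E5.5 against 48.6 CPM at E4.5.

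Within dissected and unfiltered embryos, E5.25 against E4.75, fewer members reached 2-fold. In the epiblast 0 were higher and 1 was lower, Pfkp, 5.22-fold [4.749, 5.744] lower, where 9.83% of all genes were called. In the endoderm 0 of the 9 members measured were called, where 5.86% of all genes were. In the trophoblast 1 was lower, Hk2, 2.51-fold [2.40, 2.62] lower, where 13.0% of all genes were called. Hk1 in the trophoblast was 67.5 CPM at E5.25, against 35.8 CPM at E4.75, just under the limit, as was Hk2 in the endoderm, at 136 CPM at E5.25, against 273 CPM at E4.75. The differences of Pgam1, Pfkl and Pkm between E5.5 and E4.5 were not seen at 2-fold here. At E5.5 against E4.75, both dissected but only E5.5 filtered, Pfkp was lower in the epiblast (1 of 10, background 12.9%). In the same comparison Hk1 was higher and Hk2 lower in the endoderm (2 of 10, background 8.67%) and in the trophoblast (2 of 10, background 13.6%). At E5.5 against E5.0, again with only E5.5 filtered, 0 members were called in the epiblast and in the trophoblast, with backgrounds of 2.98% and 1.24%. In the endoderm 1 was called, with a background of 2.06%. That one was Hk1, at 12.9 CPM at E5.5, against 6.23 CPM at E5.0. Outside the parietal-marker cluster, endoderm Hk1 at E5.5, as given above, was under the limit of 10 CPM. Barcodes under 1500 genes held 27.7 CPM of Hk1 at E5.5 and 10.6 CPM at E5.0, and a part of free RNA in this call was not tested.

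**Figure D4:**
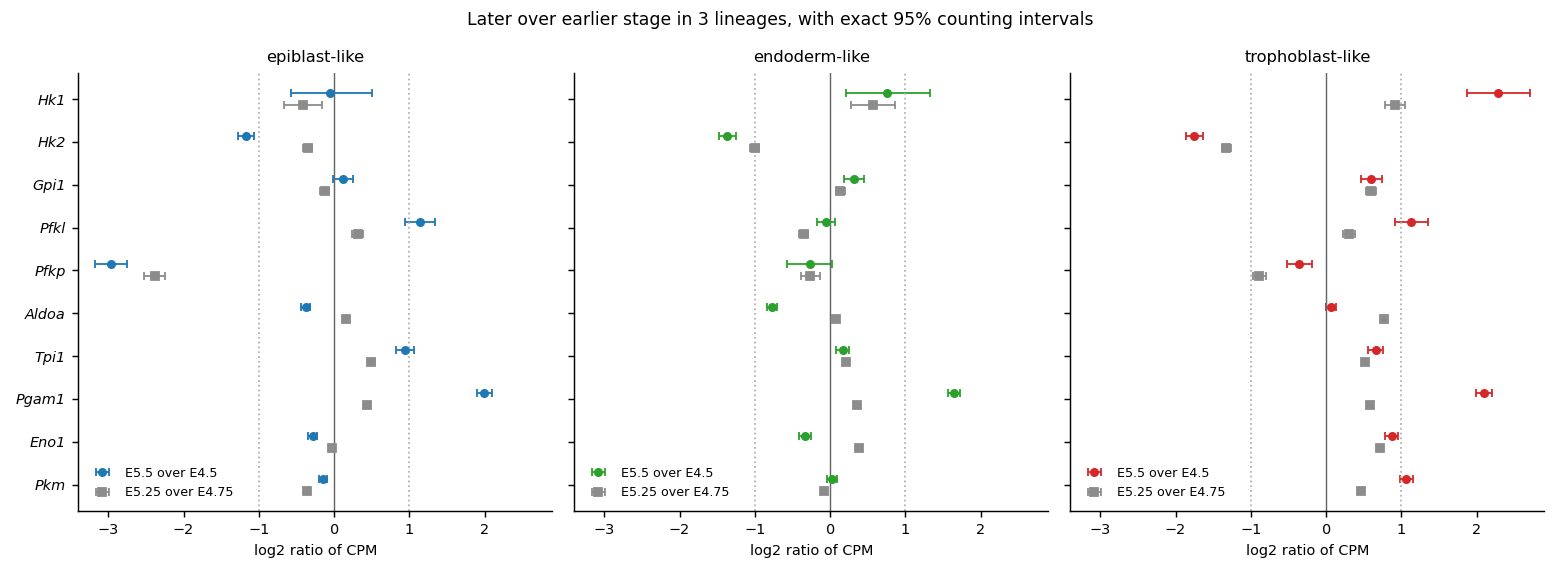
Log2 ratio of CPM (horizontal axis) of each of the 10 genes (rows) for E5.5 over E4.5 and for E5.25 over E4.75, in the epiblast, the endoderm and the trophoblast, with exact 95% counting intervals as bars and dotted lines at 2-fold. Pgam1 lies beyond 2-fold in all 3 lineages for E5.5 over E4.5 and in none for E5.25 over E4.75, while Pfkp in the epiblast and Hk2 in the trophoblast lie below it in both.

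The step from E3.5 to E4.5, both flushed, filtered and from superovulated females, was large but rests on few E3.5 cells. Epiblast-like cells of E3.5 also held more primitive and visceral endoderm markers than those of E4.5, at 799.7 against 73.3 CPM. Parietal endoderm markers were 1493 against 229 CPM, so unlike cells are compared there. In the epiblast 5 members were higher at E4.5 and 0 lower, where 34.6% of all genes were called (16.4% higher, 18.2% lower): Pfkl, Pfkp (8.54-fold [4.94, 16.1]), Tpi1, Eno1 and Pkm. In the trophoblast 5 were higher and 0 lower, where 29.7% were called (14.7% higher, 15.0% lower): Hk1, Pfkp (52.7-fold [14.5, 437] on 2 UMIs at E3.5), Pgam1, Eno1 and Pkm. Pfkp, Eno1 and Pkm were thus on both lists. At E3.5 Hk2 was 2.63-fold [2.23, 3.11] and Tpi1 4.02-fold [2.93, 5.60] higher in trophoblast-like than in epiblast-like cells. Pfkp, Pgam1 and Pkm were at least 2-fold lower there, and 36.9% of all genes were called in that comparison.

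From E4.5 on, few members reached 2-fold between lineages of 1 library, unlike at E3.5, where the members named in the paragraph above did. At E4.5 the endoderm differed from the epiblast in Pfkl (higher) and Pfkp (lower), 2 of 10 with a background of 36.1%, and the trophoblast from the epiblast in Pkm alone, 1 of 10 with a background of 37.7%. Against the trophoblast, the E4.5 endoderm was higher in Pfkl and lower in Hk1 and Pfkp, 3 of 10 with a background of 30.7%. At E4.75 the endoderm again had Pfkl higher and Pfkp lower than the epiblast (background 42.8%) and Pfkl higher and Hk1 and Pfkp lower than the trophoblast (background 35.3%), and the trophoblast had Hk1 higher than the epiblast (background 35.9%). The phosphofructokinase difference between endoderm and epiblast was thus called at E4.5 and E4.75. The Hk1 difference between endoderm and trophoblast was called from E4.5 on, and that between trophoblast and epiblast from E4.75 on.

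From E5.0 on no member separated the endoderm from the epiblast at 2-fold. The counts were 0 of 9 at E5.0, 0 of 9 at E5.25 and 0 of 10 at E5.5, with backgrounds of 44.0%, 44.0% and 42.2%. The trophoblast differed from the epiblast in Hk1 and Pfkp, both higher, at E5.0, E5.25 and E5.5 (2 of 10 each, backgrounds 29.2%, 27.8% and 26.6%). The endoderm was lower than the trophoblast in Hk1 at E5.0 (background 39.4%) and in Hk1 and Pfkp at E5.25 and E5.5 (backgrounds 39.8% and 38.2%). Giant cell-like cells had Hk1 lower than trophoblast-like cells at all 3 days, and Pfkp higher at E5.0 and E5.25 (backgrounds 12.4%, 13.4% and 16.7%). In the parietal-marker cluster Hk1 was higher and Pfkp lower than in the other endoderm-like cells at each of these days (2 of 10 each, backgrounds 20.7%, 23.0% and 24.3%). In most of these comparisons the members' share was below that of all genes, and the called ones were forms of hexokinase and phosphofructokinase.

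The same pattern was seen as shares of cells. Each cell was thinned to 4000 UMIs, since detection depends on depth, and shallower cells were left out (236 of 1169 trophoblast-like, 569 of 2358 epiblast-like and 686 of 1511 endoderm-like cells at E5.5). After thinning, Hk1 was found in 0 of 42, 5.56%, 11.6%, 20.5%, 21.7% and 28.1% [25.2, 31.1] of trophoblast-like cells from E3.5 to E5.5. At E5.5 it was found in 3.80% of epiblast-like, 5.58% of endoderm-like and 2.97% of giant cell-like cells. Without thinning, the E5.5 shares were 42.9% of trophoblast-like cells at a median of 6580 UMIs, 6.96% of epiblast-like cells at 6215.5 UMIs and 5.23% of giant cell-like cells at 6365 UMIs. Among the thinned trophoblast-like cells of E5.5, 10.9% held both Hk1 and Hk2, 17.1% Hk1 alone, 30.8% Hk2 alone and 41.2% neither. At this depth a cell with 1 of the genes may hold the other unseen, so these shares do not divide cells into types.

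Pfkp was found in 4.55%, 44.0%, 30.7%, 7.91%, 6.002% and 6.596% of thinned epiblast-like cells from E3.5 to E5.5, against 25%, 66.9%, 83.5%, 30.7%, 30.7% and 11.3% before thinning. In giant cell-like cells the thinned shares were 42.8%, 46.0% and 44.5% at E5.0, E5.25 and E5.5. The order of days in the epiblast followed its CPM, with E4.5 highest. Pfkl was found in 4.55%, 19.5%, 30.8%, 32.4%, 36.6% and 42.8% of thinned epiblast-like cells. In the E4.75 epiblast, between the high and low Pfkp levels, 8.81% of cells held both genes, 22.0% Pfkl alone and 21.9% Pfkp alone.

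**Figure D5:**
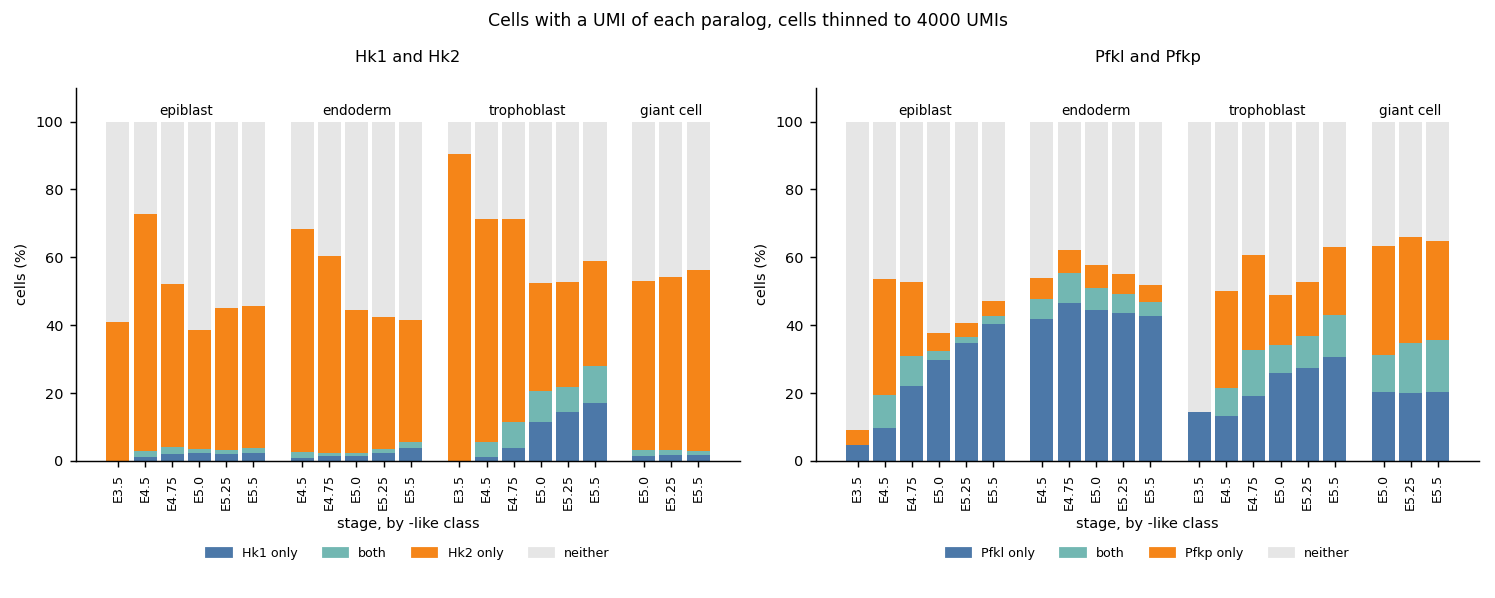
Stacked bars of the share of cells (vertical axes, percent) with a UMI of the first gene only, of both, of the second only or of neither, for Hk1 and Hk2 (left) and Pfkl and Pfkp (right), after thinning to 4000 UMIs per cell, by day within each class (horizontal axes). Hk1, alone or with Hk2, reaches 28.1% of trophoblast-like cells at E5.5, and Pfkp, alone or with Pfkl, is in 44.0% of epiblast-like cells at E4.5 and 6.596% at E5.5.

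The rest of the pathway was followed with a list of 21 other glycolytic genes. At E5.5, against E4.5, 3 of 9 measured were at least 2-fold higher and 1 lower in the epiblast, 4 of 9 higher and 1 lower in the endoderm, and 5 of 9 higher and 1 lower in the trophoblast. The shares over all genes measured in these comparisons, which also stand behind the lists below, were 13.0% higher and 18.1% lower in the epiblast, 16.7% and 11.3% in the endoderm, and 12.6% and 17.3% in the trophoblast. Phosphoglycerate kinase Pgk1, the first ATP-yielding enzyme, was 858 CPM at E5.5 and 363 CPM at E4.5 in the epiblast and 986 CPM at E5.5 and 379.7 CPM at E4.5 in the trophoblast. Lactate dehydrogenase Ldha was 1528 CPM at E5.5 and 707 CPM at E4.5 in the trophoblast. Within dissected embryos, at E5.25 and E4.75, Pgk1 was 675 and 416 CPM in the epiblast and 851 and 454 CPM in the trophoblast, and Ldha 1460.4 and 883 CPM in the trophoblast, all within 2-fold. At E3.5 Ldha was 60.5 CPM [44.6, 80.3] in the epiblast and 0 UMIs in the trophoblast, which allows up to 3.62 CPM, while at E4.5 the epiblast held 822 CPM. Its heart-type paralog Ldhb was 95.5 CPM at E5.5 and 24.3 CPM at E4.5 in the epiblast. The Ldhb share of both was 2.88%, 3.22%, 5.55%, 6.91% and 6.47% there from E4.5 on, and at most 2.36% in trophoblast-like and 0.745% in endoderm-like cells of those days. The testis form Ldhc was 3.26 CPM at E5.5 and 61.4 CPM at E4.5 in the epiblast and was the gene called lower in each lineage. At E5.25 and E4.75 it was 3.81 and 3.94 CPM in the epiblast.

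Genes of the reverse pathway and of fructose-2,6-bisphosphate, the activator of phosphofructokinase, were mostly lower at E5.5 than at E4.5 where called. The exception was Pfkfb3 in the epiblast. Of 11 listed, 1 of 6 measured was at least 2-fold higher (Pfkfb3) and 4 lower (Fbp1, Fbp2, Pck2, Pcx) in the epiblast at E5.5 against E4.5. Pfkfb3 was 12.5 CPM at E5.5 and 6.09 CPM at E4.5 there. In the endoderm 0 of 7 were higher and 4 lower (Pfkfb4, Fbp1, Pck2, Pcx), and in the trophoblast 0 of 5 were higher and 2 lower (Fbp1, Fbp2). Within dissected embryos, at E5.25 and E4.75, epiblast Pfkfb3 was 9.98 and 12.1 CPM and Pck2 26.2 and 11.7 CPM, both in the opposite direction. Epiblast Fbp1 was 1.66 and 2.65 CPM, Fbp2 0.332 and 5.89 CPM and Pcx 6.83 and 11.3 CPM. Most of the Fbp1 difference, from 23.8 CPM at E4.5, thus lay between flushed and dissected libraries. Fbp2, a muscle fructose-1,6-bisphosphatase that opposes phosphofructokinase, was 366 CPM in the E3.5 epiblast and 148 CPM in the E3.5 trophoblast, and at most 24.2 CPM in the 3 lineages later. It was among the leading genes of the E3.5 epiblast cluster, so its level helped to define those cells. Among 17 genes of branches and exits, again at E5.5 against E4.5, 0 of 13 were higher and 1 lower in the epiblast. In the endoderm 1 of 14 was higher and 0 lower, and in the trophoblast 1 of 12 was higher and 2 lower. Pdk1, the kinase that restrains pyruvate entry into mitochondria, was 3.62, 6.59, 9.96, 26.9, 44.8 and 58.1 CPM in trophoblast-like cells over the 6 days. In the epiblast Pdk1 was 53.1 CPM at E5.5, against 54.2 CPM already at E4.5. Glycerol-3-phosphate dehydrogenase Gpd2 was 50.6 CPM at E5.5 and 112 CPM at E4.5 in the trophoblast.

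Among 11 regulators known to act on glycolytic genes or on Pkm splicing, 4 of 11 measured were at least 2-fold higher and 1 lower in the epiblast at E5.5 against E4.5, 7 of 9 higher and 0 lower in the endoderm, and 3 of 9 higher and 2 lower in the trophoblast. The shares over all genes called either way were 31.1%, 28.0% and 29.9% in these comparisons. At E5.25 against E4.75, both dissected, 0 of 10 were higher and 1 lower in the epiblast, 2 of 9 higher (Epas1, Mycn) and 0 lower in the endoderm, and 0 of 9 higher and 1 lower (Mycn) in the trophoblast, where 9.83%, 5.86% and 13.0% of all genes were called. The hypoxia-inducible factor gene Epas1 was 14.7, 47.2, 96.6, 120.0 and 147 CPM in the endoderm from E4.5 on, with 641, 835 and 738 CPM in the parietal-marker cluster at the last 3 days. Hif1a was 198 CPM at E5.5 and 86.7 CPM at E4.5 in the endoderm, and 166 CPM at E5.25 and 143 CPM at E4.75. Egln1, the prolyl hydroxylase that marks these factors for degradation, was higher in all 3 lineages, at 65.7 CPM at E5.5 and 11.9 CPM at E4.5 in the epiblast, 93.9 CPM at E5.5 and 25.6 CPM at E4.5 in the endoderm, and 87.6 CPM at E5.5 and 40.2 CPM at E4.5 in the trophoblast. At E5.25 and E4.75 Egln1 was 41.1 and 24.9 CPM in the epiblast, 88.0 and 83.0 CPM in the endoderm, and 93.4 and 56.1 CPM in the trophoblast. Of the splicing factors, Ptbp1 was 314 CPM at E5.5 and 126 CPM at E4.5 in the epiblast and 367 CPM at E5.5 and 143 CPM at E4.5 in the endoderm. Srsf3 was 629.5 CPM at E5.5 and 291 CPM at E4.5 in the endoderm, and 852 CPM at E5.5 and 334 CPM at E4.5 in the trophoblast. Within dissected embryos these genes stayed within 2-fold. At E5.25 and E4.75 Ptbp1 was 248 and 231 CPM in the epiblast and 344 and 306 CPM in the endoderm, and Srsf3 was 619.8 and 597 CPM in the endoderm and 816 and 713 CPM in the trophoblast. Mycn was 117 CPM at E5.5 and 43.2 CPM at E4.5 in the endoderm, but 44.4 CPM at E5.5 and 92.2 CPM at E4.5 in the trophoblast, where Myc was 51.6 CPM at E5.5 and 158 CPM at E4.5. At E5.25 and E4.75 Mycn was 89.6 and 42.5 CPM in the endoderm and 46.9 and 103 CPM in the trophoblast, and Myc was 36.1 and 50.5 CPM in the trophoblast.

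Genes of like pattern were sought over 17 class levels, the 3 lineages at all days with at least 30 cells, among 6680 genes with a mean of 20 CPM or more. The levels share libraries and depth, and the correlation of log2(CPM + 10) is a description. Nearest to Hk1 were Gm1673 (r = 0.95), Fpgs (0.94) and the placental growth regulator Phlda2 (0.93), and nearest to Hk2 were Ube2v1 (0.95), Stk40 (0.95) and Chmp4b (0.94). Pfkp was nearest to Ing5 (0.88) and Pfkl to Manf (0.93), Pgam1 to Tial1 (0.96), Pkm to Dtnb (0.95) and Aldoa to Mrps18c (0.91). Eno1 had the glycolytic gene Pgk1 second, at 0.91, behind 2010204K13Rik at 0.92. Among the members, Eno1 and Pkm went together (0.86), Hk2 and Pgam1 went opposite (−0.87), and Hk1 and Hk2 were only weakly opposed (−0.35). The range over the 17 levels was widest for Pfkp, 58.1-fold on 2 UMIs at the lowest, and for Hk1, 32.9-fold, and narrowest for Aldoa, 2.01-fold, and Gpi1, 2.30-fold.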

How the data were processed

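Single cells of 6 mouse embryo libraries, 1 per embryonic day, had been profiled with 10x Chromium 3' chemistry. Values are whole UMI counts per gene and barcode, unnormalised, as the authors deposited them, and the matrix headers give Cell Ranger 7.1.0 as their source. Builds listed in the submitters' processing notes are mm10, GRCm38 and hg38, without a role. No source used here says whether reads were counted by strand. Barcodes with at least 1500 genes and at most 15% mitochondrial UMIs were kept, and Scrublet (in scanpy 1.11.5) removed 1039 likely doublets, 0.8% per 1000 cells. Cells were normalised to 10000 UMIs, log-transformed and clustered (2000 variable genes, 30 components, 15 neighbours, Leiden resolution 1.0). Clusters were named from marker lists where at least 3 markers were 2-fold up. The rules for mixed-marker clusters and for counting both clusters with parietal markers as endoderm were chosen after the clusters were seen, and all genes, the 10 enzymes included, were open to the clustering. UMIs were summed per class of at least 30 cells and library and given as CPM with exact Poisson intervals. Shares have Clopper-Pearson intervals, and ratios have exact conditional binomial intervals. A gene was called at 2-fold with 10 CPM or more in either group. No test was run, because each day is 1 library. Besides the 10 enzymes and their paralogs, list genes were described if at 50 CPM or more, called at E5.5 against E4.5 and on the same side at E5.25 against E4.75. Fbp1, Fbp2, Pck2, Pcx, Pfkfb3 and genes named only within counts fall outside that rule and were chosen after their values were seen. Likeness was searched over the 3 nearest genes per enzyme. The members, the lists of other glycolytic, gluconeogenic, branch and regulator genes and the comparisons were chosen with earlier results of these data known. Statistics used scipy 1.17.1 and numpy 2.4.6 under Python 3.11.15. The alternatives were other filters, clusterings, scalings, stage pairs and paralog sets. Results for some paralogs are not reported here.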

Additional observations from a re-analysis of the deposited data

How the results depend on the processing

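Of the 11 calls of a member in a lineage at E5.5 against E4.5, 7 were made under all 15 processing alternatives. Hk2 in the epiblast missed 2-fold with median-of-ratios scaling (log2 ratio −0.99). Hk1, Pfkl and Pkm in the trophoblast missed it with each library clustered alone (0.52, 0.92 and 0.55), and Pkm also with giant cell-like cells summed in (0.91). The count of called members was 4 in the epiblast, and 1 at E5.25 over E4.75, 1 at E5.5 over E4.75 and 0 at E5.5 over E5.0. In the endoderm it was 2, and 0 at E5.25 over E4.75 and 1 at E5.5 over E5.0. In the trophoblast it was 5, and 3 with each library clustered alone, 1 at E5.25 over E4.75, 2 at E5.5 over E4.75 and 0 at E5.5 over E5.0. The 3 were Hk2, Pgam1 and Pfkp, and Pfkp was not among the 5. Clustered alone it was 112 CPM at E5.5 and 48.6 CPM at E4.5, higher where the main classes had it lower. At E5.5 over E5.0 the sign turned for Hk2 in the epiblast (0.27) and for Pgam1 in the endoderm (−0.067) and the trophoblast (−0.060).

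Differences in share are in percentage points, later minus earlier. The Hk2 share differed by −3.46 in the epiblast and by 0.24, with the opposite sign, at E5.25 over E4.75. In the endoderm it differed by −6.59, and by −4.70 with a higher minimum of genes per cell, −8.77 without doublet removal, −25.14 with Hkdc1 added (chosen after the data were seen), −3.89 at E5.25 over E4.75 and −4.62 without the parietal-marker cluster. In the trophoblast it differed by −34.31, and by −23.37 at resolution 1.5, −16.98 with each library clustered alone, −23.64 at E5.25 over E4.75 and −18.19 with giant cell-like cells. The Pfkp share differed by −57.18 in the epiblast, and by −61.61 after thinning, −52.50 with Pfkm added and −35.92 at E5.25 over E4.75. In the trophoblast it differed by −24.95, and by −20.31 at E5.25 over E4.75, −17.02 with giant cell-like cells and 4.91, the opposite sign, with each library clustered alone. The causes were not tested. The E3.5 values rest on 44 and 42 cells, and E5.5 cells are the shallowest. No paired analysis was possible because each day is 1 library.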

Other observations

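At E5.5 the barcodes under 1500 genes, which entered no class, held 27.7 CPM of Hk1, 142 CPM of Hk2, 149 CPM of Pfkl, 62.8 CPM of Pfkp and 916 CPM of Pgam1. The 2185 cells of E5.5 in clusters with markers of unrelated lineages held 34.4 CPM of Hk1, 179 CPM of Hk2, 148.8 CPM of Pfkl and 76.4 CPM of Pfkp. Both sets lay between the trophoblast-like and epiblast-like levels for Hk1 and Pfkp.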
